A study of Mus musculus with 23 samples.

Results

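Calhm6 and Dnase1l3 are 2 of the 26869 genes measured in 23 MC38 tumors grown in F1 mouse hosts, and they were described here in every tumor by host line and antibody. Both were chosen by their difference between tumors of responder (R) and non-responder (NR) lines in these same tumors, so that difference is given as a description and carries no test. Calhm6 (ENSMUSG00000046031) lies on the minus strand of GRCm38 at chr10:34126067-34127984, and Dnase1l3 (ENSMUSG00000025279) lies on the minus strand at chr14:7964533-7994573. Both are annotated as protein-coding genes.

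Every tumor was grown from MC38, 1 mouse cell line derived from a colon carcinoma. Hosts were female F1 mice aged 8 to 12 weeks from crosses of C57BL/6J with Collaborative Cross (CC) strains, which are inbred lines bred from a shared set of founder strains. The R lines were C57BL/6J x CC001/UncJ (CC001F1), C57BL/6J x CC002/UncJ (CC002F1) and C57BL/6J x CC075/UncJ (CC075F1). The NR lines were C57BL/6J x CC036/UncJ (CC036F1), C57BL/6J x CC079/TauUncJ (CC079F1) and C57BL/6J x CC080/TauUncJ (CC080F1). Tumors of 75 to 110 mm3 received a single 200 µg dose of an antibody against PD-1 (aPD1, clone 29F.1A12) or of an isotype control antibody (clone 2A3), and were taken 48 h later for poly(A) RNA sequencing of the bulk tumor. Each line gave 2 tumors per antibody, except CC080F1 with aPD1, which gave 1, so there were 12 R and 11 NR tumors. Library totals ran from 14494014 to 71868253 counts, with 6 shallow libraries (2 R and 4 NR) at 18354585 counts or fewer and 17 deep ones at 37242363 or more.

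Calhm6 encodes a pore-forming channel protein of the calcium homeostasis modulator (CALHM) family. It is induced by interferon and microbial stimuli in macrophages and takes part in signalling from macrophages to natural killer (NK) cells. Dnase1l3 encodes a secreted deoxyribonuclease, made mainly by macrophages and dendritic cells, that digests DNA in chromatin and in membrane particles shed by dying cells. Loss of its activity leads to antibodies against DNA and a lupus-like disease. In a bulk tumor, a lower level of a gene made by such cells can stand for fewer of these cells or for less RNA per cell, and the values below cannot tell the 2 apart.

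The stretch of DNA just upstream of Calhm6 is shown because interferon-induced genes often carry a short shared motif there. It covers bases 120 to 21 before the RefSeq start site at chr10:34127993-34128092 on the minus strand of GRCm38.p6. Capitals mark the match to GAAANNGAAA, the core of the interferon-stimulated response element:
Calhm6: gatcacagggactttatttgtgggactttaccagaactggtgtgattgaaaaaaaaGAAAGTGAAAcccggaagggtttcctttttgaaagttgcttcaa
The match lay 64 to 55 bases before the start site. In windows from 250 bases before to 50 bases after the start, GAAANNGAAA was present on either strand in 3.45% of 32544 RefSeq promoters. TTCNNNGAA, the core of the gamma-activated site, was present in 8.33% of them and had no match in the Calhm6 window. A match is a description of the letters and not evidence of a bound factor. No sequence is shown for Dnase1l3.

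Calhm6 was higher in tumors of the R lines than in those of the NR lines, and it was highest in R tumors given aPD1. Values are normalized counts, that is deposited expected counts divided by DESeq2 size factors over all 23 libraries. In the R lines with isotype control, the CC001F1 tumors had 159 and 142, the CC002F1 tumors 102.0 and 91.4, and the CC075F1 tumors 129 and 88.3 normalized counts of Calhm6. In the R lines with aPD1, the CC001F1 tumors had 163 and 429, the CC002F1 tumors 281 and 256, and the CC075F1 tumors 704 and 347. Both aPD1 tumors stood above both isotype tumors in each R line, although CC001F1 aPD1 replicate 1 did so by less than the scaling decides: scaled by total counts it had 4.08 CPM, below the 4.15 CPM of isotype replicate 1.

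In the NR lines with isotype control, the Calhm6 level was 19.6 and 28.3 in CC036F1, 34.1 and 27.8 in CC079F1, and 132 and 30.7 in CC080F1. With aPD1 it was 70.5 and 27.2 in CC036F1, 61.9 and 47.0 in CC079F1, and 55.2 in the single CC080F1 tumor. CC080F1 isotype replicate 1 was thus the only NR tumor within the range of the R tumors, and the other 10 NR tumors had at most 70.5, below the lowest R tumor at 88.3. Calhm6 was chosen for its class difference, and the share of all genes with such an order was not counted. These values rest on 9 to 745 expected counts per library.

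Dnase1l3 followed a like order. In the R lines with isotype control, the CC001F1 tumors had 384 and 258, the CC002F1 tumors 189 and 143, and the CC075F1 tumors 292 and 379.9 normalized counts of Dnase1l3. In the R lines with aPD1, the CC001F1 tumors had 383 and 1143, the CC002F1 tumors 438 and 392, and the CC075F1 tumors 881 and 488. Isotype and aPD1 tumors were apart in CC002F1 and CC075F1, whereas in CC001F1 the lower aPD1 tumor did not exceed the higher isotype tumor.

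In the NR lines with isotype control, the Dnase1l3 level was 84.8 and 45.1 in CC036F1, 29.95 and 71.4 in CC079F1, and 233 and 82.0 in CC080F1. With aPD1 it was 122.9 and 97.4 in CC036F1, 85.6 and 56.0 in CC079F1, and 124.5 in CC080F1. Again CC080F1 isotype replicate 1 was the only NR tumor within the R range, which began at 143. As for Calhm6, the share of all genes with such an order was not counted. The expected counts behind these values ran from 25 to 1398 per library.

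**Figure D1:**
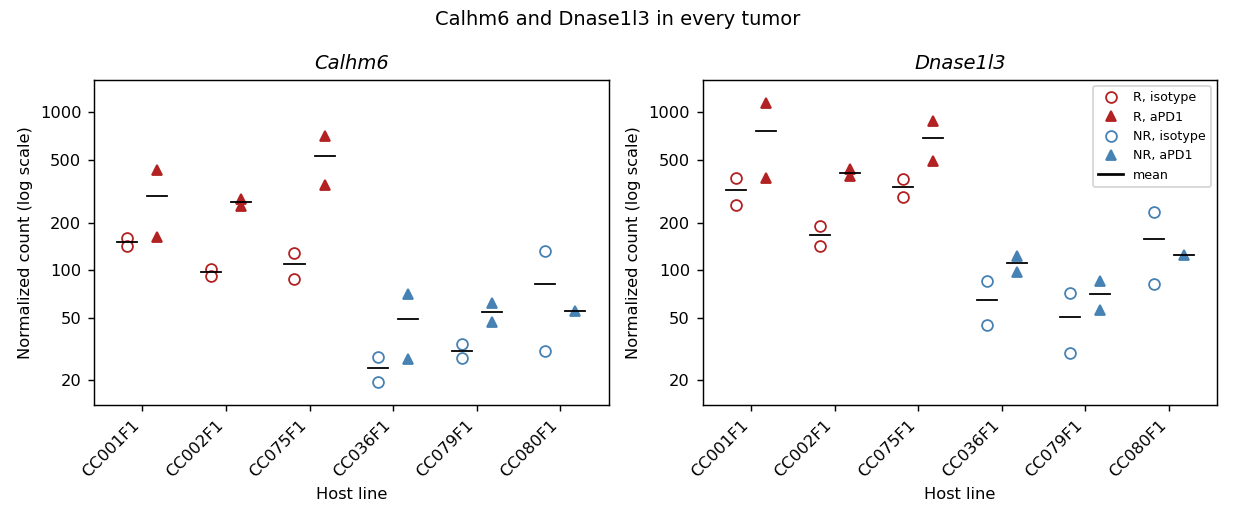
Normalized counts (log scale) of Calhm6 and Dnase1l3 in each of the 23 tumors, by host line, with R lines in red, NR lines in blue, open circles for isotype control, triangles for aPD1 and a black bar for the mean of each group. Every R tumor lies above every NR tumor other than CC080F1 isotype replicate 1, which is at 132 for Calhm6 and 233 for Dnase1l3. Both genes were chosen for their class difference, and the share of all genes with this pattern was not counted.

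Over all R tumors the lowest, median and highest Calhm6 values were 88.3, 161 and 704, against 19.6, 34.1 and 132 over all NR tumors. For Dnase1l3 they were 143, 384 and 1143 in R and 29.95, 84.8 and 233 in NR tumors. With the antibody as a term, the DESeq2 difference of R minus NR tumors was 2.03 ± 0.33 (SE, n = 12 and 11) on the log2 scale for Calhm6 and 2.10 ± 0.31 for Dnase1l3. This fit, also used for the gene lists below, had no line term, so tumors of a line counted as independent. Of the 17643 genes tested in this contrast, 7.66% were called higher and 6.78% lower in R tumors. Without CC080F1 isotype replicate 1 the differences were 2.45 and 2.42.

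The class difference was also read within each antibody. On the scale of log2(normalized count + 1), the mean difference for isotype tumors was 1.66 (Calhm6) and 1.80 (Dnase1l3), and for aPD1 tumors 2.69 and 2.58. Among aPD1 tumors the lowest R value exceeded the highest NR value for both genes, as it did for 3.08% of the 13686 genes with a mean of at least 1 CPM (reads of a gene scaled to a library of fixed total). Among isotype tumors the classes overlapped through CC080F1 isotype replicate 1 alone.

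Ordered by the mean of log2(normalized count + 1), Calhm6 fell from CC075F1 (7.85) over CC001F1 (7.64), CC002F1 (7.34), CC080F1 (5.95) and CC079F1 (5.38) to CC036F1 (5.05). The order for Dnase1l3 was CC075F1 (8.87), CC001F1 (8.84), CC002F1 (8.03), CC080F1 (7.07), CC036F1 (6.38) and CC079F1 (5.85). Tumor values of every pair of lines next to each other in these orders overlapped.

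Within a class, differences between lines were tested with a DESeq2 likelihood ratio test with the antibody as a term. Among R lines the fitted line levels of Calhm6 spanned 0.62 on the log2 scale, with an adjusted p of 1. Those of Dnase1l3 spanned 0.92, with an adjusted p of 0.134, where CC002F1 was the lowest line. Neither gene was called, and 1.05% of the genes tested were. The Dnase1l3 span rose to 1.03 and passed the threshold in the 10 deep libraries alone (adjusted p = 0.0323). It also passed when CC001F1 aPD1 replicate 1 was left out (1.16), and likewise CC075F1 aPD1 replicate 2 (1.04). The Calhm6 span fell to 0.39 without CC075F1 aPD1 replicate 1.

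Among NR lines the fitted levels of Calhm6 spanned 1.23 (adjusted p = 0.318) and those of Dnase1l3 spanned 1.41 (DESeq2 adjusted p = 0.0514), with CC080F1 as the highest line for both. Neither was called, against 9.46% of the genes tested. Without CC080F1 isotype replicate 1 the spans fell to 0.25 and 0.76. Without CC080F1 aPD1 replicate 1, CC080F1 isotype replicate 2 or CC079F1 isotype replicate 2, the Dnase1l3 span was 1.77, 1.64 and 1.68 and passed the threshold, with DESeq2 adjusted p of 0.0309, 0.0188 and 0.0431.

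In R lines both genes rose 48 h after aPD1. With line as a term, the DESeq2 difference of aPD1 minus isotype tumors was 1.57 ± 0.27 (SE, n = 6 and 6) for Calhm6, with an adjusted p of 1.53e-05. For Dnase1l3 it was 1.19 ± 0.23, with a DESeq2 adjusted p of 0.000146. Of the 15701 genes tested, 4.85% were called higher and 0.408% lower. The changes were estimated at the same size by edgeR, at 1.56 and 1.18, but did not pass its threshold (adjusted p = 0.0585 and 0.0645), and edgeR called 0 genes in this contrast, with 2621 at an unadjusted p under 0.05 against 2722 in DESeq2. In the exact two-sided permutation test of antibody within lines, p was 0.00926 for Calhm6, the smallest that the 216 assignments can give, and 0.0185 for Dnase1l3. Earlier results of these data were known when the genes were chosen, so these tests are no independent support.

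By line, Calhm6 differed least in CC001F1 (0.81), more in CC002F1 (1.47) and most in CC075F1 (2.20) on the log2(normalized count + 1) scale. The Dnase1l3 differences were 1.07, 1.33 and 0.98 in the same lines. Without CC001F1 aPD1 replicate 1 the CC001F1 differences were 1.51 and 1.86, and without replicate 2 they were 0.12 and 0.28. In CC002F1 and CC075F1 both aPD1 tumors exceeded both isotype tumors for each gene, a pattern found in 8.84% of the 13686 genes. On the log2(normalized count + 1) scale the CC001F1 aPD1 tumors differed from each other by more than any other replicates of an R group. Replicate 1 was at the isotype level for both genes, and replicate 2 was at 429 normalized counts for Calhm6 and 1143 for Dnase1l3. The muscle gene sum described below was 519 CPM in replicate 1 and 0.496 in replicate 2, and the T cell gene sum was 22.5 and 61.9. Their part in the difference was not tested.

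**Figure D2:**
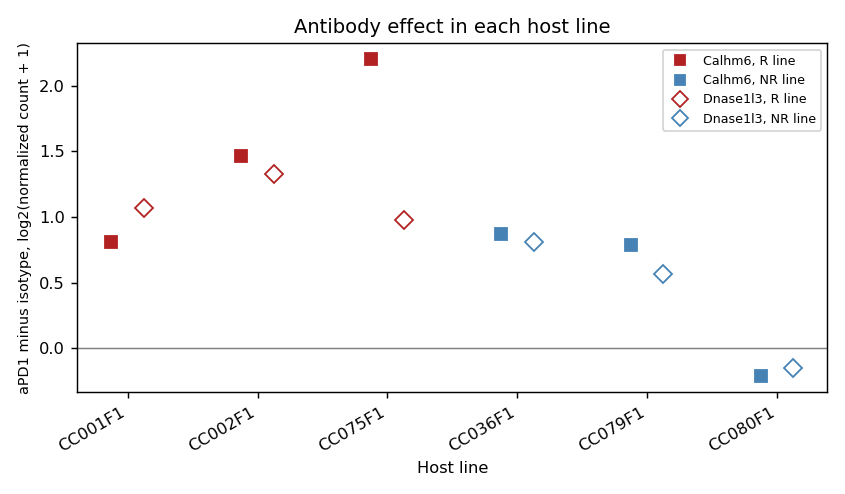
Difference of the mean log2(normalized count + 1) between aPD1 and isotype tumors in each host line, with squares for Calhm6 and diamonds for Dnase1l3, red for R and blue for NR lines. Changes in R lines run from 0.81 to 2.20, those in CC036F1 and CC079F1 from 0.57 to 0.87, and those in CC080F1 lie below 0 but are 0.83 and 0.60 without isotype replicate 1.

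In NR lines neither gene passed the test. The DESeq2 difference was 0.55 ± 0.44 (SE, n = 5 aPD1 and 6 isotype tumors) for Calhm6 and 0.41 ± 0.35 for Dnase1l3, both with an adjusted p of 0.9997, and 0.0448% of the 24552 genes tested were called. By line, Calhm6 changed by 0.87 in CC036F1, 0.79 in CC079F1 and -0.21 in CC080F1, and Dnase1l3 by 0.81, 0.57 and -0.15. The CC080F1 values rested on 1 aPD1 tumor and turned to 0.83 and 0.60 without isotype replicate 1 of that line, and the Dnase1l3 change in CC079F1 turned to -0.04 without isotype replicate 1. Over all NR lines, without CC080F1 isotype replicate 1 the differences were 0.90 and 0.67, still not called (DESeq2 adjusted p = 0.388 and 0.457). Without CC080F1 aPD1 replicate 1 they were 0.91 and 0.67, and in the 7 deep NR libraries alone 0.18 and 0.68.

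The antibody effect itself was not shown to differ between the classes. In the DESeq2 fit across all genes, the interaction, R minus NR, was 1.04 ± 0.50 for Calhm6 (adjusted p = 0.726, and 0.0387 before adjustment) and 0.79 ± 0.42 for Dnase1l3 (adjusted p = 0.783, and 0.0589 before adjustment). Of the 26342 genes tested, 0.0342% were called. The values fell to 0.68 and 0.52 without CC080F1 isotype replicate 1, and to 0.67 and 0.52 without CC080F1 aPD1 replicate 1. In the 17 deep libraries alone they were 1.49 and 0.57, not called.

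Calhm6 and Dnase1l3 correlated over the R tumors, which share lines and antibodies. On log2(CPM + 1) with TMM-scaled library sizes, Pearson's r was 0.85 over the 12 R tumors (permutation p = 0.00031, Benjamini-Hochberg adjusted over both classes 0.00062) and Spearman's rho was 0.91 (permutation p = 0.00014, adjusted 0.00028). Without the 2 tumors farthest from the Calhm6 median r was 0.72. Both genes were higher with aPD1, and the pooled relation includes that difference. Within the 6 R isotype tumors r was 0.44 (exact permutation p = 0.365, adjusted over 3 groups 0.365) and rho 0.37 (exact p = 0.497, adjusted 0.746), so the relation was not shown there. Within the 6 R aPD1 tumors r was 0.79 (exact permutation p = 0.0472, adjusted 0.142) and rho 0.94 (exact p = 0.0167, adjusted 0.05), which did not pass after adjustment. Over the 11 NR tumors r was 0.73 (permutation p = 0.0128, adjusted 0.0128) and rho 0.47 (permutation p = 0.145, adjusted 0.145), and without the 2 farthest tumors r fell to 0.23, so the NR relation rested on those tumors. Within the 6 NR isotype tumors r was 0.80 (exact permutation p = 0.156, adjusted 0.233) and rho 0.03 (exact p = 1, adjusted 1).

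In R tumors the log2 ratio of Dnase1l3 to Calhm6 averaged 1.15 ± 0.51 (SD, n = 6) with isotype control and 0.78 ± 0.43 (n = 6) with aPD1. It was 1.01 ± 0.77 (n = 6) in NR isotype and 0.89 ± 0.61 (n = 5) in NR aPD1 tumors. The 4 groups overlapped in this ratio. Per kilobase of the annotated principal transcript (1094 bases for Calhm6 and 4747 for Dnase1l3) the order of the genes turned, since the mean Calhm6 level was 5.81 CPM per kilobase in R and 1.18 in NR tumors, against 2.50 and 0.525 for Dnase1l3.

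**Figure D3:**
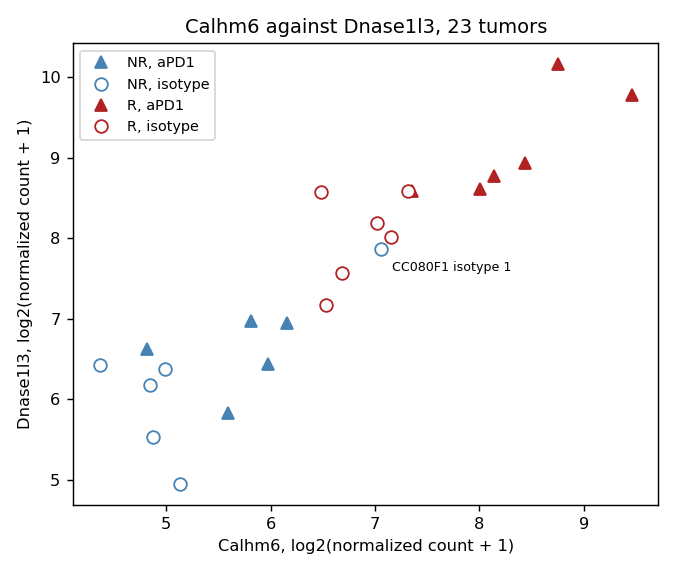
Dnase1l3 against Calhm6, both as log2(normalized count + 1), with 1 point per tumor, red for R, blue for NR, circles for isotype control and triangles for aPD1. Replicate 1 of CC080F1 with isotype control lies among the R isotype tumors, apart from the other 10 NR tumors.

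The genes whose levels were most like each of the 2 over all 23 tumors were ranked by Pearson's r of log2(CPM + 1) over 13648 genes with a mean of at least 1 CPM. It is given without a test, since all genes share the libraries and any gene that differs between the classes correlates with the others that do. For Calhm6 the 10 highest included AW112010 (0.97), Klrk1 (0.97), Fgl2 (0.96), Il2rg (0.95), Themis2 (0.95), Ptk2b (0.95), Ctsc (0.95), Slc11a1 (0.95) and Dennd1c (0.95). For Dnase1l3 they included Klrk1 (0.97), Cd74 (0.97), H2-Aa (0.96), Il2rg (0.96), H2-Ab1 (0.96), Fgl2 (0.95), Dennd1c (0.95), AW112010 (0.95) and H2-T23 (0.94). The lists shared 6 genes of 10. The 2 genes correlated with each other at 0.93, and 30 genes were closer to Calhm6 and 16 closer to Dnase1l3 than that.

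Klrk1, which encodes the activating receptor NKG2D of NK cells and CD8 T cells, stood high on both lists. It ran from 9.18 to 43.1 CPM over R tumors and from 3.47 to 10.98 CPM over NR tumors. Cd74, H2-Aa and H2-Ab1, which encode the invariant chain and the chains of an MHC class II molecule, appeared for Dnase1l3 and not among the 10 for Calhm6. Fgl2, which encodes a fibrinogen-like protein secreted by macrophages and T cells, ran from 66.7 to 392 CPM in R and from 26.5 to 84.1 CPM in NR tumors. Reads of the MHC genes could be shared with near-identical copies, and the expected counts split such reads.

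When the mean of each line was subtracted, so that differences between lines no longer counted and those between antibodies still did, the leading genes changed. For Calhm6 they included Klrk1 (0.94), Prdx5 (0.93), AW112010 (0.93), Fgl2 (0.93), Irf8 (0.92), Ly6a (0.92), Basp1 (0.92), Irgm1 (0.92) and Hpse (0.92). Irf8 is a transcription factor of interferon responses and of dendritic cell development, and Irgm1 is an interferon-induced GTPase. For Dnase1l3 they were Ctsh (0.93), Unc13d (0.92), Plbd1 (0.91), Cd300lf (0.91), Cd52 (0.91), Scimp (0.91), Klrk1 (0.91), Epsti1 (0.91), Selplg (0.91) and Sirpb1c (0.91). Ctsh encodes a lysosomal cathepsin and Unc13d a protein needed for release of cytotoxic granules. Only Klrk1 was on both lists, and the 2 genes correlated with each other at 0.85.

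The relatives of Calhm6 gave no calls. Of the other CALHM genes, 4 were in the table. Calhm2 and Calhm5, the 2 with a DESeq2 adjusted p, were not called in R against NR tumors or in aPD1 against isotype tumors of R lines, and edgeR called 0 of the 4. At an unadjusted p under 0.05 these were 0 of the 4 in DESeq2 and 1 in edgeR for R against NR, and 0 in either tool for the antibody. Calhm2, at a mean of 15.5 CPM over all tumors, was the most abundant and differed by 0.08 ± 0.10 (SE) on the log2 scale. Calhm5, which lies next to Calhm6, had 0.738 and 0.933 CPM and differed by -0.33 ± 0.24. Calhm1 and Calhm4 had means below 0.1 CPM in both classes and got no DESeq2 adjusted p in either contrast.

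Of 7 other DNases, 3 were called higher and 0 lower in R tumors. Trex1, the cytosolic exonuclease that removes DNA before it is sensed, was higher by 0.54 ± 0.15 (DESeq2 adjusted p = 0.00597). Dnase1l1 was higher by 0.34 ± 0.11 (adjusted p = 0.0187) and the secreted Dnase1 by 0.27 ± 0.09 (adjusted p = 0.0323). The lysosomal Dnase2a, at 28.2 and 27.2 CPM, differed by 0.05 ± 0.06. The list's median was 0.27 against -0.0004 over all genes tested, and only Trex1 was called by edgeR. In the deep libraries alone Trex1 was the 1 gene called higher and Endog was called lower (DESeq2 adjusted p = 0.0465), and the Dnase1 call held in 14 of the 23 fits that each left out 1 tumor. After aPD1 in R lines Trex1 alone rose, by 0.75 ± 0.19 (DESeq2 adjusted p = 0.00524), a call lost without CC001F1 aPD1 replicate 2 and in edgeR (adjusted p = 0.0784).

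Of 10 genes that sense DNA or relay that signal, 3 were called higher and 0 lower in R tumors, with a median difference of 0.32. They were Tlr9 (1.12 ± 0.28), the endosomal DNA receptor, its chaperone Unc93b1 (0.55 ± 0.13), and Sting1 (0.55 ± 0.10), the adaptor of cytosolic DNA sensing. Cgas, the enzyme upstream of Sting1, differed by 0.12 ± 0.05 and was not called. After aPD1 in R lines 6 of the 10 rose and 0 fell, with a median of 0.53 against -0.01 over all genes tested. These included Irf7 (1.22 ± 0.33), Zbp1 (0.85 ± 0.16) and Ifi204 (1.03 ± 0.29). The count was 2 without CC001F1 isotype replicate 1 and 0 by edgeR, and of 12 fits that each left out 1 tumor Zbp1 was called in 12, Irf7 in 10 and Ifi204 in 7. In NR lines 0 of the 10 were called by DESeq2 or edgeR, with 1 at an unadjusted p under 0.05 in each, and the median was 0.06.

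Of 10 genes of interferon-gamma signalling, 6 were called higher and 0 lower in R tumors. Ifng itself differed by 1.89 ± 0.33 and Ciita, the regulator of MHC class II genes, by 1.52 ± 0.28. The receptor genes Ifngr1 and Ifngr2 and the kinase genes Jak1 and Jak2 differed by at most 0.05. The count was 3 in the deep libraries alone. The Socs1 call held in 12 of 23 fits that each left out 1 tumor, and Socs1 was not called by edgeR (adjusted p = 0.0811) or by limma with line as a random effect (adjusted p = 0.221). After aPD1 in R lines 6 of the 10 rose, with Ifng at 1.5 ± 0.37, and the count was 4 without CC001F1 aPD1 replicate 2 and 0 by edgeR. In NR lines 0 were called by DESeq2 or edgeR, with 1 and 2 at an unadjusted p under 0.05.

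Of 9 genes that carry signals between myeloid and NK cells, 3 were called higher and 0 lower in R tumors, namely Klrk1 (1.69 ± 0.23), Klrb1c (0.87 ± 0.30) and Il15ra (0.27 ± 0.06). Klrb1c was not called by edgeR (adjusted p = 0.0809) or by limma with line as a random effect (adjusted p = 0.125), and its DESeq2 call held in 17 of 23 fits that each left out 1 tumor. Il12b, at 0.788 and 0.542 CPM, Il15 at 7.80 and 6.57 CPM and Il18 at 2.22 and 2.14 CPM were not called. Il12a, at 0.560 and 1.04 CPM in R and NR tumors, pointed the other way by -0.88 ± 0.36 without a call (DESeq2 adjusted p = 0.0844, and 0.0152 before adjustment). After aPD1 in R lines Klrk1 (1.02 ± 0.22) and Il15ra (0.23 ± 0.07) rose. That count was 4 without CC001F1 aPD1 replicate 1, 0 without CC002F1 isotype replicate 2 and 0 by edgeR. The Il15ra call held in 2 of 12 fits that each left out 1 tumor, and the Klrk1 call in 11.

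Most listed macrophage markers and some of those of 1 kind of dendritic cell were called higher in R tumors. Those of other dendritic cells were not called higher. Of 10 macrophage genes 7 were called higher and 0 lower in R tumors, with a median difference of 0.40, and their summed level ran from 2419 to 5670 CPM in R and from 1811 to 3624 CPM in NR tumors. The Csf1r call held in 14 of 23 fits that each left out 1 tumor and was not made by edgeR (adjusted p = 0.0789). The complement genes C1qa, C1qb and C1qc differed by 0.57, 0.65 and 0.55, and Mrc1, a receptor of alternatively activated macrophages, by -0.24 without passing the test. Of 6 genes of type 1 conventional dendritic cells (cDC1) 3 were called higher, namely Xcr1 (1.44 ± 0.40), Batf3 (1.08 ± 0.30) and Irf8 (0.70 ± 0.14). Irf8 is also on the interferon-gamma signalling list. Xcr1 was not called by limma with line as a random effect (adjusted p = 0.0825) or in the deep libraries alone (DESeq2 adjusted p = 0.103). Clec9a (0.18 ± 0.10), Tlr3 (-0.03 ± 0.09) and Itgae (-0.29 ± 0.24) were not called. The sum of the 6 genes ran from 97.2 to 173 CPM in R and from 71.2 to 126 CPM in NR tumors. Of 5 genes of type 2 dendritic cells (cDC2) 0 were called by DESeq2 or edgeR (2 had an unadjusted p under 0.05 in each), and of 6 genes of mature dendritic cells DESeq2 called 1, Cacnb3, lower in R tumors. Of 3 plasmacytoid dendritic cell genes 0 were called by DESeq2 or edgeR (0 had an unadjusted p under 0.05 in each), and their sum was at most 2.93 CPM.

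Some markers of other cell types moved as well. Of 6 T cell genes 5 were called higher in R tumors, with Cd8a at 1.78 ± 0.39 and a summed level of 16.9 to 80.0 CPM in R and 5.27 to 33.2 CPM in NR tumors. Of 5 NK cell genes 2, Klre1 and Klrb1c, were called higher (Klre1 alone by edgeR and by limma with line as a random effect), and their sum ran from 9.23 to 51.1 CPM in R and from 6.53 to 15.5 CPM in NR tumors. Of 6 endothelial genes only Pecam1 (0.52 ± 0.17) was called, and of 4 neutrophil genes only Csf3r (0.95 ± 0.22). The neutrophil genes S100a8 (-0.69 ± 0.57), S100a9 (-0.90 ± 0.71) and Retnlg (-0.72 ± 1.36) pointed the other way without a call. Their means over all tumors were 0.30, 0.36 and 0.03 CPM. Of 5 fibroblast genes Dcn and Pdgfra were called lower in R tumors, and the Dcn call held in only 7 of 23 fits that each left out 1 tumor. Col1a1 (0.46 ± 0.30), Bgn (0.29 ± 0.25) and Postn (0.30 ± 0.25) pointed the other way without a call, and the median of the fibroblast list was 0.29. DESeq2 and edgeR called 0 genes of the B cell, epithelial, skeletal muscle and adipocyte lists over all tumors, and only 3 skeletal muscle genes in DESeq2 had an unadjusted p under 0.05. The 5 skeletal muscle genes were all called higher in the deep libraries alone, and their sum ran from 0.394 to 519 CPM in R and from 0.338 to 195 CPM in NR tumors. After aPD1 in R lines 6 of the macrophage and 2 of the cDC1 genes rose in DESeq2, and 0 of the T cell or NK cell genes were called, with 2 and 3 at an unadjusted p under 0.05 (1 and 2 in edgeR). Without CC001F1 aPD1 replicate 1 these counts were 8 macrophage, 3 T cell and 2 NK cell genes, without CC001F1 aPD1 replicate 2 they were 4 macrophage and 1 cDC1 gene, in the deep libraries alone 9 macrophage and 1 NK cell gene, and edgeR called 0 genes of each list. The part of any of these cell types in the levels of Calhm6 and Dnase1l3 was not tested.

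Within lines, with both antibodies together, Calhm6 went most closely with the interferon-gamma signalling genes. With the mean of each line subtracted, its r with the list score, the mean log2(CPM + 1) of the list, was 0.95 for interferon-gamma signalling, 0.87 for DNA sensing, 0.67 for macrophage, 0.66 for T cell and 0.68 for cDC1 genes over 23 tumors. Dnase1l3 had 0.84, 0.89, 0.73, 0.74 and 0.80 with the same lists. Both were near 0 for skeletal muscle genes, at 0.03 for Calhm6 and 0.0014 for Dnase1l3, and for B cell genes, at -0.08 and -0.04. With endothelial genes r was 0.18 for Calhm6 and 0.41 for Dnase1l3. With genes that carry signals between myeloid and NK cells it was 0.74 and 0.72, and with NK cell genes 0.67 and 0.46. Plasmacytoid dendritic cell genes had 0.65 and 0.55, and neutrophil genes 0.60 and 0.71. These are descriptions over tumors that share lines and libraries, and some genes are on more than 1 list.

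**Figure D4:**
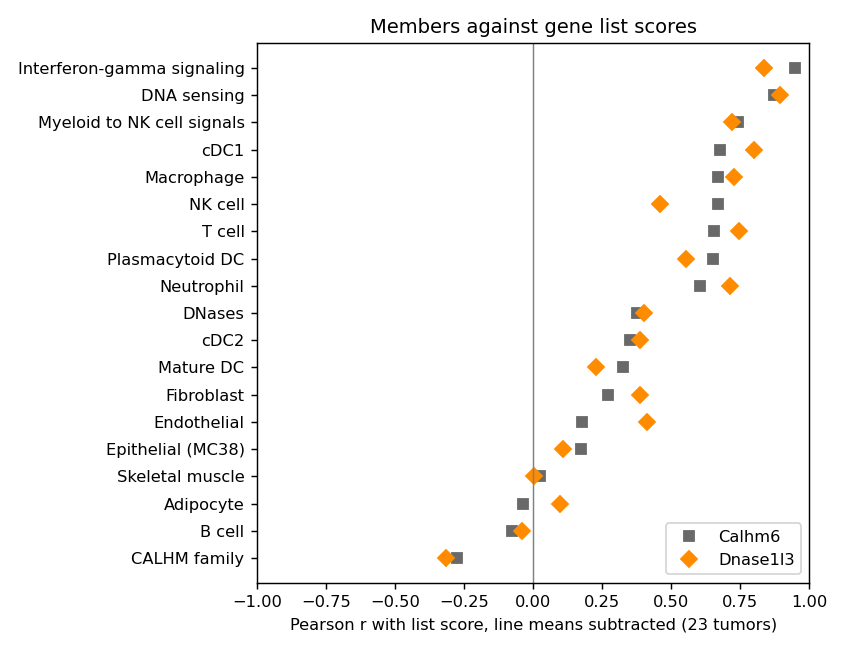
Pearson's r between each gene (squares for Calhm6, diamonds for Dnase1l3) and the score of each gene list over 23 tumors after the mean of each line was subtracted. The highest value is 0.95 for Calhm6 with interferon-gamma signalling, and skeletal muscle, adipocyte and B cell lists lie near 0.

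CC080F1 isotype replicate 1, the NR tumor with R-like levels of both genes, also had high sums of some other immune gene lists, but not of all. Its T cell sum of 33.2 CPM and its DNA sensing sum of 548 CPM were the highest of the 11 NR tumors, and the other NR isotype tumors had 5.27 to 17.5 and 393 to 487 CPM. Its interferon-gamma signalling sum of 1089 CPM was above the 814 to 1007 CPM of the other NR isotype tumors. So were its cDC1 sum (123 CPM against 77.0 to 114) and its neutrophil sum (11.9 CPM against 4.42 to 8.53). The sum of genes that carry signals between myeloid and NK cells was also higher (70.55 CPM against 54.97 to 64.31). Its macrophage sum of 3130 CPM lay within their range of 1811 to 3624 CPM, and its NK cell sum of 11.5 CPM within 9.66 to 15.5 CPM. The B cell sum (2.95 CPM) lay within 2.35 to 7.17 CPM. Its mature dendritic cell sum of 325 CPM was below their 328 to 406 CPM. The cDC2 sum of 21.60 CPM was near the low end of 21.56 to 28.53 CPM. Of lists that are not immune, the adipocyte sum was also higher (4.92 CPM against 0.047 to 1.54). Whether these move the level of Calhm6 and Dnase1l3 in that tumor was not tested.

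Genes next to Calhm6 and Dnase1l3 differed little between the classes. Within 250000 bases of the Calhm6 start, 9 other protein-coding genes start, and of the 6 that could be tested Dse alone was called, higher in R tumors by 0.12 ± 0.04 (DESeq2 adjusted p = 0.0243). Rwdd1, Tspyl1 and Zup1 differed by 0.0024, -0.0067 and 0.12. Within the same distance of the Dnase1l3 start 8 other genes start, 6 were tested and 0 were called by DESeq2, with 0 at an unadjusted p under 0.05. Over all 17643 genes tested in this contrast, 7.66% were called higher and 6.78% lower, so so few neighbours cannot be told from other genes by their calls. The nearest, Abhd6, begins 8329 bases away and differed by -0.10 ± 0.08. After aPD1 in R lines 0 of the 12 tested neighbours were called by DESeq2, and Tspyl4 (-0.45 ± 0.20) near Calhm6 and Pxk (0.18 ± 0.07) near Dnase1l3 had an unadjusted p under 0.05. Of all genes tested for that effect, 4.85% were called higher and 0.408% lower.

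**Figure D5:**
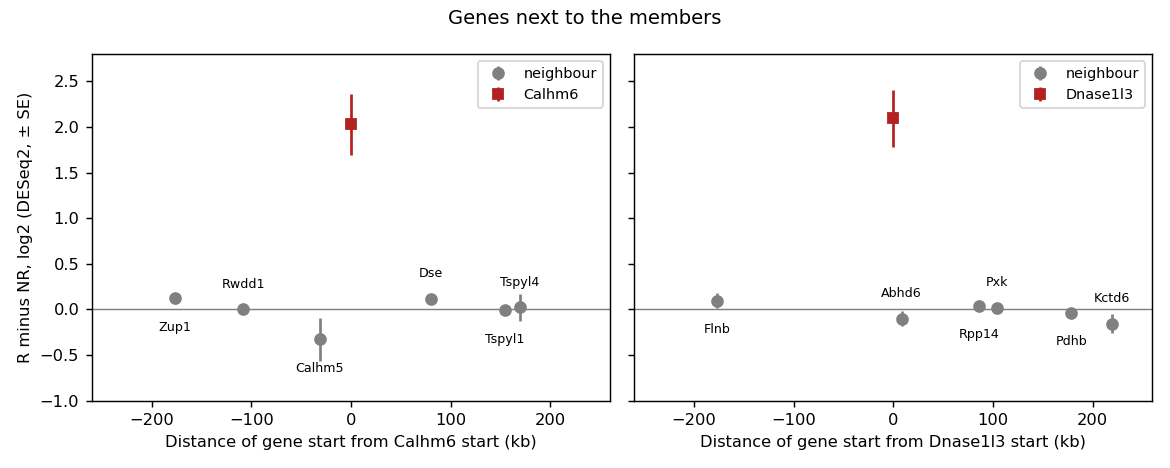
DESeq2 difference of R minus NR tumors on the log2 scale, with its standard error, for Calhm6 and Dnase1l3 (red squares) and for the tested protein-coding genes that start within 250000 bases (grey circles), against distance of the gene starts. The neighbours lie between -0.33 and 0.12, whereas Calhm6 and Dnase1l3, which were chosen for this difference, lie at 2.03 and 2.10.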

How the data were processed

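The authors made poly(A) libraries, aligned reads with Bowtie 1.2.3 (version per the labels) to founder-strain transcriptomes (GRCm38) and apportioned reads among genes and haplotypes by means of gbrs. Values deposited by the authors are expected counts for each gene, not scaled for depth, of which 16.95% were not whole. They were rounded to whole numbers. Names and coordinates came from GENCODE vM21, which matched 26681 of 26869 identifiers. Groups came from the labels and the R and NR classes from the study's text. Replicates of a group differed by more than sampling noise (chi-square divided by its degrees of freedom was 9.16 to 123 in 11 pairs), and the labels call them biological replicates without saying more.

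Tests used DESeq2 1.42.0 in R 4.3.3 (Wald test, likelihood ratio test for lines, at least 5 summed counts, Benjamini-Hochberg adjusted p under 0.05), with line as a term for antibody effects. DESeq2 gave no adjusted p for genes it filtered out. The R against NR fit treated tumors of a line as independent. The fit of each comparison was tested on simulated data. For R against NR the simulated counts held no line differences, so they could not show what counting tumors of a line as independent does. CPM used TMM factors from edgeR 4.0.16. Named genes were both members, the 10 with the highest r on each scale, fixed lists and neighbours; values of some of these genes are not reported here. Members and lists were chosen with earlier results of these data known. Alternatives were edgeR, limma 3.58.1 with line as a random effect, other filters, total counts as library size, deep libraries alone, a replicate block, exact permutation and leaving out each tumor.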

Additional observations from a re-analysis of the deposited data

Results flagged for a closer look

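CC080F1 isotype replicate 1 stood apart from the other 5 NR isotype tumors in both genes, with 132 normalized counts of Calhm6 against at most 34.1 and 233 of Dnase1l3 against at most 84.8. The gap to the next tumor was 0.871 of the group's range for Calhm6 and 0.729 for Dnase1l3, above Dixon's critical value of 0.625 for 6 tumors. On the log2(normalized count + 1) scale, looked at after the data were seen, the shares were 0.714 and 0.496, so the Dnase1l3 value did not pass there. About 1 in 20 groups passes that value by chance, and 8 groups of tumors were looked at. Both flags come from the same library, so they are not independent of each other.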

How the results depend on the processing

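The direction of the R minus NR differences, of the antibody effects in R and in NR lines and of their interaction was kept for Calhm6 and Dnase1l3 under each alternative run for them. The changes within single lines turned in 3 cases when a tumor was left out, an alternative added after the data were seen: CC080F1 to 0.83 for Calhm6 and 0.60 for Dnase1l3 without its isotype replicate 1 (-1.25 and -0.896 without replicate 2), and CC079F1 to -0.043 for Dnase1l3 without its isotype replicate 1. The antibody effects in R lines lost their call in edgeR alone, at 1.56 and 1.18, and the Dnase1l3 span among R lines gained one in the deep libraries alone, at 1.03. The cause was not tested. Leaving out 1 tumor at a time, the antibody effect in R lines ran from 1.33 to 1.78 for Calhm6 and from 0.95 to 1.34 for Dnase1l3, in NR lines from 0.22 to 0.91 and 0.22 to 0.67, and the interaction from 0.67 to 1.37 and 0.52 to 0.98. The spans ran from 0.39 to 0.83 and 0.83 to 1.16 among R lines and from 0.25 to 1.74 and 0.76 to 1.77 among NR lines, and R minus NR from 1.86 to 2.45 and 1.96 to 2.42.

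Called genes numbered 826 for aPD1 in R lines (0 in edgeR, 327 to 1386 without 1 tumor, lowest without CC001F1 aPD1 replicate 2 and highest without CC001F1 aPD1 replicate 1) and 11 in NR lines (5 in edgeR, 4 with filterByExpr, 7 with total counts, 44 in deep libraries alone, 2 to 242 without 1 tumor). For the interaction they numbered 9 (0 in edgeR with 1932 at an unadjusted p under 0.05, 50 in deep libraries alone, 4 to 305). For lines they numbered 200 in R (87 in edgeR, 165 to 330) and 1602 in NR (1119 to 1874), and for R against NR 2548 (1668 in deep libraries, 1622 in limma, 2089 to 2798). With total counts as library size 606 of 737 aPD1 calls in R lines were higher, against 762 of 826. Of the 10 genes most like each, 5 remained for Calhm6 with Spearman's rho and 5 for Dnase1l3 in deep libraries alone.

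With the replicate block the antibody effect was 1.503 for Calhm6 and 1.12 for Dnase1l3 in R lines (both called by DESeq2), 0.39 and 0.38 in NR lines, and the interaction 1.15 and 0.75, and interaction calls rose to 21. The block changed no call of the 2 genes. The shared numbers were not taken as pairs, since deviations of same-numbered tumors of a line correlated by only -0.05 to 0.24 over 5 lines. Expected counts of Calhm6 were 9 to 243 in NR and 66 to 745 in R tumors, and the part of these counts in the missing NR calls was not tested.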
